A study of Mus musculus with 18 samples.

Results

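The loci described here are the copies of the mouse ERVK family that do not belong to the intracisternal A particles (IAP). They were chosen by name alone, as the rows of the table of transposable element (TE) locus counts whose family is ERVK and whose subfamily name does not begin with IAP. This gave 294769 loci of 260 subfamilies, out of 3725827 TE loci of 1146 subfamilies in the table. Of these loci, 46833 had a read count in any library, and 2406 passed the filter on low counts and were tested, a filter that a locus can pass through 1 group alone. Summed by subfamily, 241 of the 260 subfamilies were tested. A locus carries a subfamily name and a copy number, such as RLTR44-int_dup180, so its position, sequence and host gene were not analysed here. Lengths are not given either, so levels per length are not compared between loci, and where a locus is said to have the highest level this means its CPM (reads in proportion to the library), which a longer locus raises.

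RNA came from C3H/10T1/2 (CCL-226) cells, an established mouse mesenchymal progenitor cell (MPC) line, grown without differentiation cues. The 3 lines were compared by rRNA-depleted RNA-seq. *Atrx* WT is the isogenic line that received the Cas9 vector without a guide, and the sg5 and sg6 lines are *Atrx* KO clones, 1 clone for each guide (G7 for sg5 and B10 for sg6). Each line has 3 libraries, n = 3 throughout, and the comparison asks which ERVK copies are expressed at another level in *Atrx* KO cells. With a single clone per guide, effects of the guide, the clone and *Atrx* loss cannot be told apart. Both comparisons share the WT libraries. Nothing in the labels says that the libraries are separate cultures, so the p-values measure the spread between these libraries, which may be technical. In bulk RNA, fewer cells that express a locus and less of its RNA per cell cannot be told apart.

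ERVK elements are the class II endogenous retroviruses of the mouse, remnants of betaretrovirus-like infections of the germ line. A complete copy has an internal part with retroviral genes between a pair of LTRs, which hold the promoter, while recombination between LTRs leaves many copies as a solo LTR; annotation names the parts separately, the internal ones ending in -int. Many copies are kept silent by KRAB zinc finger proteins, which bind their sequence and recruit TRIM28 and the H3K9 methyltransferase SETDB1. ATRX acts with the chaperone DAXX to place histone H3.3 in heterochromatin, ERVs included. Among the lineages counted here, ETn and MusD are known for insertions that cause mouse mutations, MMERVK10C is a group with proviral copies, and RLTR and RMER names stand mostly for older LTRs.

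Library totals ran from 20135336 to 33187136 counts, so a locus at 0 counts is below about 3 counts per library, a floor that covers counting error only. *Atrx* itself, the targeted gene, had 5064, 5213 and 8287 counts in WT, 2900, 1092 and 1912 in sg5, and 2334, 2030 and 1909 in sg6. In CPM (counts scaled to library size, with TMM factors; mean ± SD, n = 3), WT had 206 ± 19.4, sg5 had 78.9 ± 25.3 and sg6 had 83.2 ± 12.2, with no overlap between WT and KO. The fall was 1.39 ± 0.21 on the log2 scale in sg5 (± SE, adjusted p = 0.00138) and 1.31 ± 0.20 in sg6 (adjusted p = 0.00227; here and below, edgeR's quasi-likelihood test with Benjamini-Hochberg adjustment over all genes and TEs tested). Of 12 mesenchymal markers, 10 had at least 10 counts in every library, all but *Thy1* (1 to 792 counts) and *Nt5e* (2 to 13). The 12 summed to 4513 to 5673 CPM for WT, 6646 to 8870 for sg5 and 7186 to 8775 for sg6, with *Vim* the largest (1948 to 5664 CPM). The 9 markers of other cell types together reached 3.74 to 4.89 CPM for WT, 1.34 to 1.92 for sg5 and 1.93 to 2.03 for sg6. Of the 9 only *Cd68*, a macrophage marker, had 10 counts in every library, and the 3 epithelial markers summed to 1.56 to 2.94 CPM in WT and at most 0.371 in a KO library. The part of these levels in the results was not tested. WT replicate 3 stands apart from the other libraries as the deepest and the richest in TE reads, with 15.5% of its counts on TE loci against 11.8% and 12.3% in the other WT libraries. The counts of calls in fits without it are given below. Among libraries of 1 line, replicate 1 differed most from the others in sg5 and in sg6. The chi-square per feature was 34.7 and 29.8 for sg5 pairs with replicate 1 and 11.7 for the pair without it. In sg6 the values were 32.5 and 17.7 against 9.66, and in WT 9.41 to 10.4.

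As a whole, the RNA of non-IAP ERVK loci was scarcer in both KO lines, by an amount that 3 libraries a group cannot separate from the spread. These loci took 0.345%, 0.420% and 0.511% of all counts in the WT libraries, 0.321%, 0.300% and 0.344% in sg5, and 0.333%, 0.339% and 0.350% in sg6. The sg5 values all lie below the WT values, and those of sg6 overlap the lowest WT library. The means were 0.425% ± 0.0830 in WT, 0.322% ± 0.0216 in sg5 and 0.341% ± 0.00864 in sg6 (SD, n = 3). An exact two-sided permutation test gave p = 0.1 for sg5 and p = 0.2 for sg6, where 0.1 is the smallest p that 3 against 3 allows. TE loci as a whole moved the same way, with 13.2% ± 2.02 of all counts in WT, 11% ± 0.574 for sg5 and 11.7% ± 0.432 for sg6. Within TE counts alone, the non-IAP ERVK share was 3.21% ± 0.249, 2.91% ± 0.0822 and 2.91% ± 0.0848 (exact permutation p = 0.2 for either clone against WT).

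**Figure D1:**
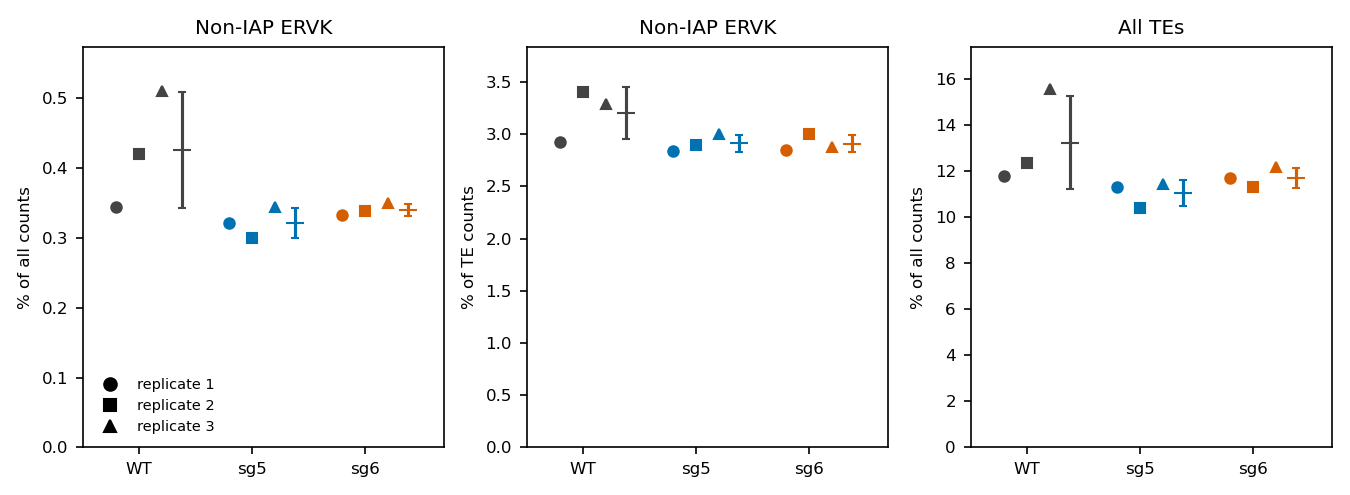
Share of non-IAP ERVK loci in all counts (left) and in TE counts (middle), and of all TEs in all counts (right), in percent, for each library of WT, sg5 and sg6; symbols mark replicate numbers, bars the mean and SD of 3 libraries. WT replicate 3 is the highest library for the left and right shares, at 0.511% and 15.5%.

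At single loci, most changes were losses. In sg5, 78 loci fell, 3.24% of the 2406 tested, against 2.06% of all genes and TE loci in the same fit, and 24 rose, 0.998% against 1.82%. In sg6, 74 fell, 3.08% against 1.72%, and 23 rose, 0.956% against 1.18%. In both clones 53 loci fell, 2.20% against 1.16% of all features, and 11 rose, 0.457% against 0.727%. All 64 of these loci had every KO library beyond every WT library. Separation came with nearly every call, as in sg5, where 78 of 78 lower and 23 of 24 higher loci had it. It adds little to the test, and its share over all called features is not given. Among TE loci of every kind, 0.615% fell and 0.236% rose in both clones. The median log2 fold change over the tested loci was −0.19 in sg5 and −0.12 in sg6, beside −0.12 and −0.08 over all TE loci tested and 0.08 and 0.04 over genes.

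The counts of calls leaned on the WT libraries. For fits other than the main one, here and below, the share over all genes and TEs is not given. A change in these counts is therefore not shown to be particular to these loci. Without WT replicate 3, 20 loci fell and 4 rose in both clones, with 36 lower and 9 higher in sg5 and 35 lower and 6 higher in sg6. Without WT replicate 1 or WT replicate 2 alike, 34 loci fell in both clones; 7 rose in both and 13 in sg6 without replicate 1, and without replicate 2, 51 fell and 14 rose in sg5 and 13 rose in sg6. Over the 9 fits that each leave out 1 library, 20 of the 53 lower loci and 3 of the 11 higher loci passed in both clones every time. Scaling by TE rows alone, chosen after seeing the data, gave 51 lower and 13 higher in both clones.

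**Figure D2:**
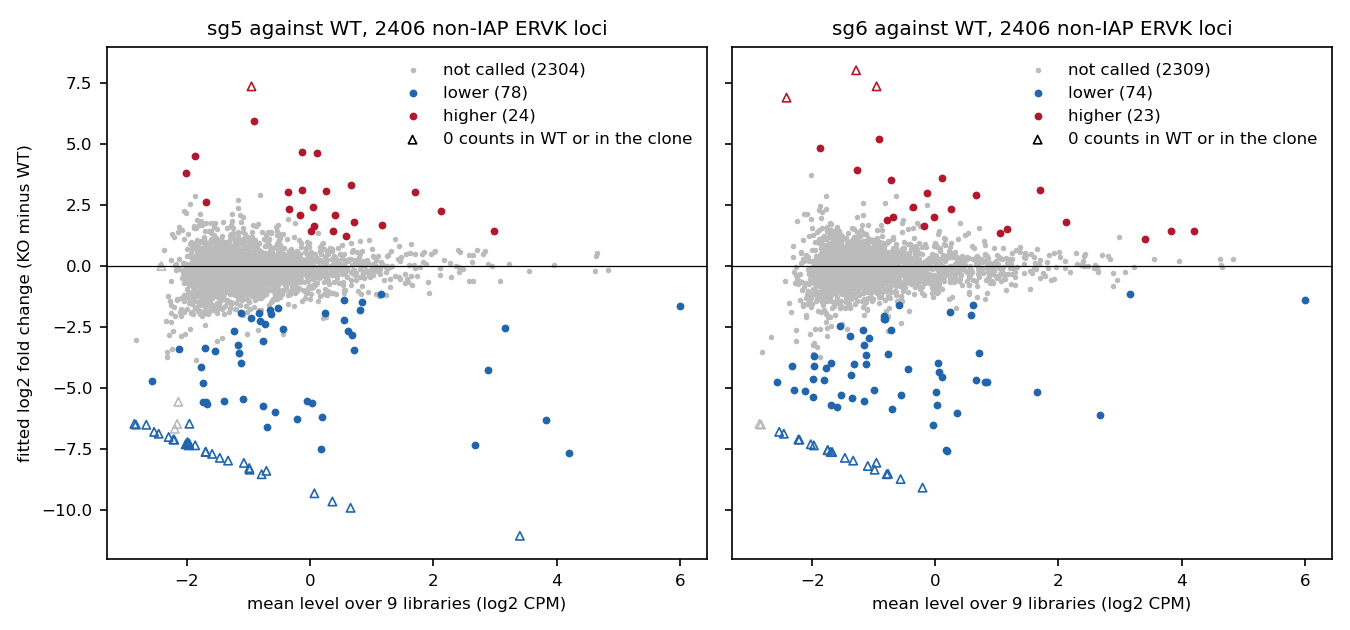
Fitted log2 fold change of each of the 2406 tested loci (vertical axis, KO minus WT) against its mean level over 9 libraries (horizontal axis, log2 CPM), for sg5 (left, 78 lower in blue and 24 higher in red) and sg6 (right, 74 and 23); open triangles are loci with 0 counts in every library of WT or of the clone, whose fitted value is no measured fold. The blue points reach far below the grey cloud, many of them along a line of loci with no count left in the clone.

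Part of the lower loci had no read count left in a clone. Of the 53 loci that fell in both clones, 23 had 0 counts in every sg5 library, 19 in every sg6 library and 11 in all KO libraries. Their mean WT level ran from 0.478 to 112 CPM, with a median of 1.19. Counted without any test, 1116 non-IAP ERVK loci had at least 10 counts in every WT library, and 12 of them (1.08%) were at 0 in all KO libraries. For all TE loci the same count was 45 of 18634 (0.241%). In the other direction, no non-IAP ERVK locus, and no TE locus of any kind, had 0 counts in every WT library and at least 10 in every KO library. With WT at 0, at least 10 counts in every sg5 library were found at 0 of these loci and 1 TE locus, and in every sg6 library at 2 of these loci and 15 TE loci.

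RLTR34B_MM_dup64 had 33, 43 and 86 counts in the WT libraries and 0 in all KO libraries. That puts sg5 lower by at least 13.6-fold (adjusted p = 0.000457) and sg6 by at least 14.6-fold (adjusted p = 0.000455). Such folds, here and below, set the mean of the group with counts against 3 counts per library, so a single library can lie closer. The call of RLTR34B_MM_dup64 held whichever library was left out. MMERVK9C_I-int_dup1766, an internal part, had 25, 27 and 95 counts in WT and 0 in all KO libraries, a fall of at least 11.9-fold for sg5 (adjusted p = 0.00192) and 12.7-fold for sg6 (adjusted p = 0.00199). Neither locus was detectable at this depth in either clone. RMER19B_dup180 had 46, 10 and 48 counts in WT, RLTR45-int_dup10 had 14, 36 and 52, and RLTR13E_dup4 had 22, 22 and 40, with 0 in every KO library for each. They were lower by at least 9.33-fold, 8.50-fold and 7.25-fold for sg5, and by at least 9.99-fold, 9.10-fold and 7.75-fold for sg6. Their adjusted p ran from 0.00272 to 0.00833. These calls depend on single WT libraries: that of RMER19B_dup180 was lost without WT replicate 1 (adjusted p = 0.0502 in sg5 and 0.0596 in sg6), and without WT replicate 3 those of RLTR45-int_dup10 (0.0502 and 0.0588) and RLTR13E_dup4 (0.0647 and 0.0768).

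**Figure D3:**
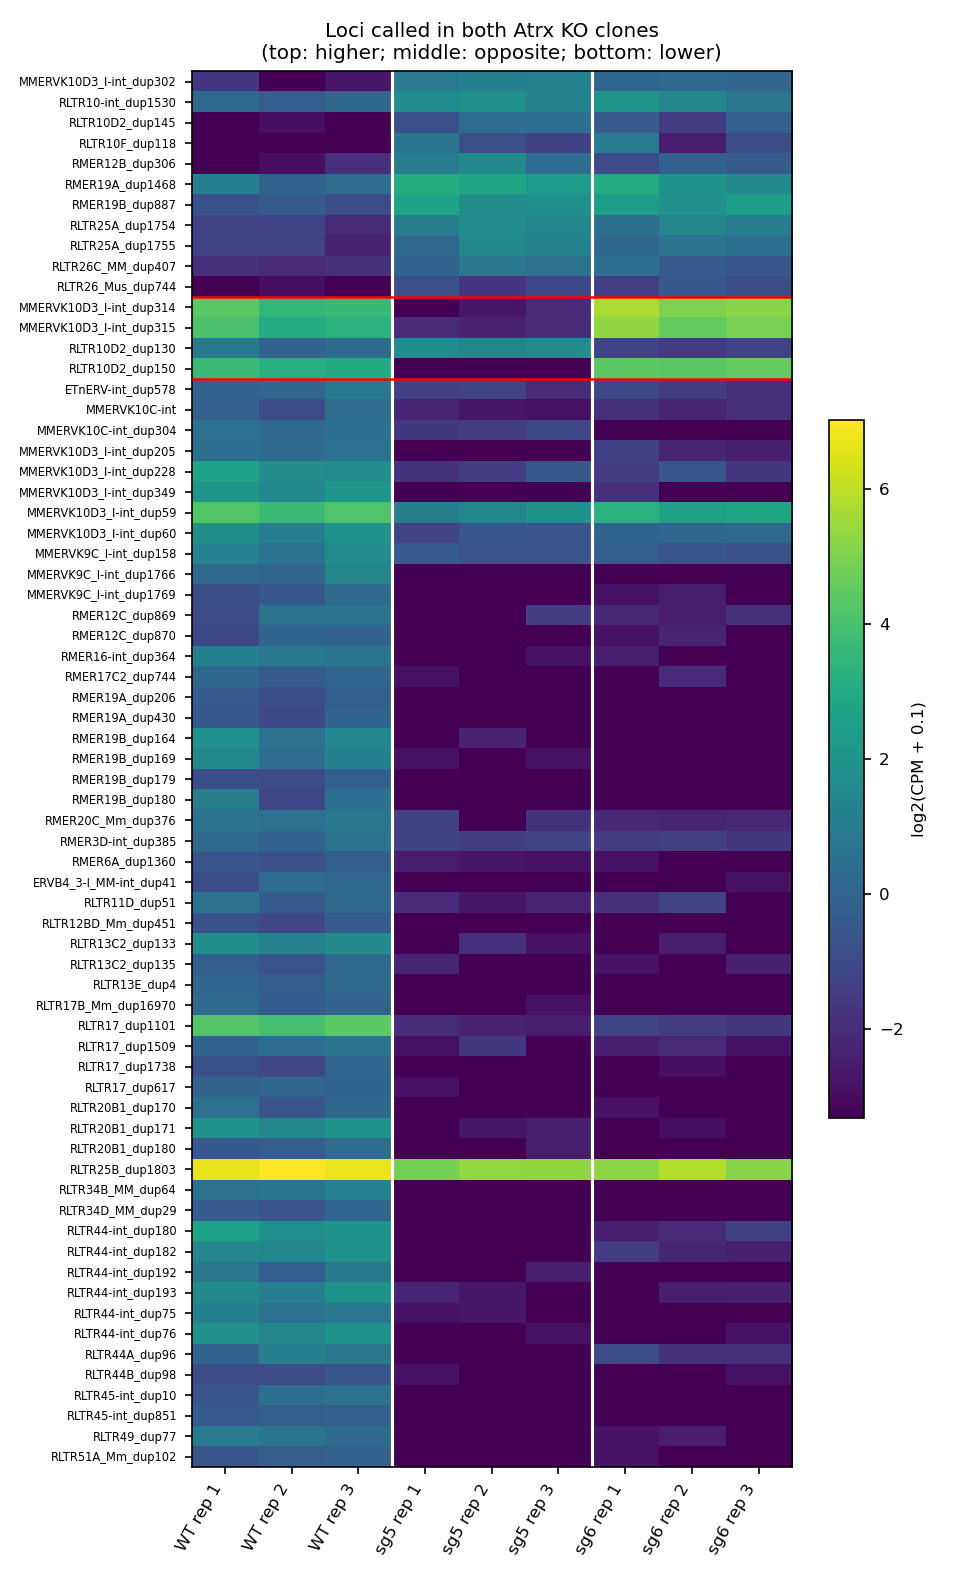
Level in each library (colour, log2 of CPM + 0.1) of the 11 loci that rose in both clones (top), the 4 that moved in opposite directions (middle) and the 53 that fell in both (bottom); columns are the 9 libraries, in the order WT, sg5, sg6. Most rows of the bottom block go from mid colours in the WT columns to the darkest colour, near 0 counts, in the KO columns, and RLTR25B_dup1803 is the brightest row in WT.

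RLTR44-int, the internal part of RLTR44 elements by its name, showed the most concentrated loss: 6 of its loci fell in both clones, and all 6 passed in each of the fits that leave out 1 library. Its loci, and others named here beyond the rule for named loci, were chosen after their values were seen. RLTR44-int_dup180 had 149, 100 and 144 counts in WT, 0 in every sg5 library, and 2, 4 and 7 in sg6. It was at least 35.7-fold lower in sg5 (adjusted p = 3.1e-05), and its log2 fold change in sg6 was −4.68 ± 0.46 (adjusted p = 0.000141). RLTR44-int_dup182 had 64, 73 and 139 counts in WT, 0 in sg5, and 6, 3 and 2 in sg6. RLTR44-int_dup76 had 88, 71 and 145 counts in WT, and each clone kept 1 count, in its replicate 3; the ratio of summed counts was 247 in sg5 (95% counting interval 44.0 to 9793) and 258 in sg6 (46.0 to 10223). Every KO library lies far below every WT library at these loci. RLTR44-int_dup193 went from 71, 57 and 144 counts to 3, 1 and 0 in sg5 and 0, 2 and 2 in sg6, while RLTR44-int_dup75 had 53, 40 and 58 counts in WT and RLTR44-int_dup192 had 40, 21 and 64, with at most 2 in any KO library.

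Together the 6 loci held 79.3% ± 4.26 of all RLTR44-int counts in WT, 4.69% ± 1.71 in sg5 and 10.6% ± 1.90 in sg6 (SD, n = 3). The rest of the subfamily was at 4.32 ± 0.175, 2.58 ± 0.446 and 3.24 ± 0.454 CPM, in the order WT, sg5, sg6. Their copy numbers stand close to each other (75 and 76, 180 and 182, 192 and 193). Of the 64 loci called in both clones, 18 have another called locus of the same subfamily and direction within 2 copy numbers, and all 6 of RLTR44-int are among them. Such loci may be pieces of 1 element, so they are not independent, and whether close copy numbers are close positions was not analysed here. The same count over all called TE loci is not given, so 18 of 64 is not shown to be particular to these loci.

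The best measured loss was at RLTR17_dup1101, an LTR. Its counts were 448, 446 and 803 in WT, 4, 2 and 2 in sg5, and 8, 7 and 5 in sg6. The log2 fold change was −7.35 ± 0.33 in sg5 (adjusted p = 5.88e-08) and −6.12 ± 0.29 in sg6 (adjusted p = 9.61e-08). The locus held 32.7% ± 3.67 of all RLTR17 counts in WT and 0.326% ± 0.110 and 0.762% ± 0.148 in sg5 and sg6. The other RLTR17 copies together were at 38.8 ± 7.70, 33.7 ± 1.53 and 34.3 ± 2.77 CPM (WT, sg5, sg6). RLTR20B1_dup171 went from 90, 73 and 140 counts to 0, 1 and 2 in sg5 and 0, 1 and 0 in sg6, and RLTR13C2_dup133 from 77, 65 and 109 to 0, 3 and 1 and to 0, 2 and 0. Both passed in every fit that leaves out 1 library. RMER19B_dup164 (86, 38 and 102 counts in WT) kept 2 counts in sg5 and none in sg6, and RMER19B_dup169 (61, 34 and 84 in WT) kept 1 count each in sg5 replicates 1 and 3 and none in sg6. RLTR49_dup77 had an even level in WT, at 43, 42 and 42 counts, with 0 in sg5 and 1, 2 and 0 in sg6. Other copies of RLTR20B1 were lost as well: RLTR20B1_dup170 had 33, 16 and 37 counts in WT and 1 in all KO libraries together, and RLTR20B1_dup180 had 15, 22 and 45 in WT and 2 in all KO libraries together. Their calls are less firm: that of RLTR20B1_dup170 was lost in sg6 without WT replicate 1 or WT replicate 3 (adjusted p = 0.0616 and 0.0565), and that of RLTR20B1_dup180 in sg5 without WT replicate 2 or WT replicate 3 (0.0570 and 0.169) and in sg6 without WT replicate 3 (0.0982). These loci have counts in every WT library and are at or near 0 in both clones. Whether the reads belong to the ERVK copy or to a host gene was not analysed.

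RLTR25B_dup1803 was the non-IAP ERVK locus with the highest level of all, and it was reduced without being lost. Its counts were 2422, 3672 and 3901 in WT, 788, 757 and 1062 in sg5, and 896, 1590 and 843 in sg6. No KO library reached the lowest WT library. The log2 fold change was −1.62 ± 0.21 in sg5 (adjusted p = 0.000402) and −1.38 ± 0.20 in sg6 (adjusted p = 0.00154). It made up 78.4% ± 2.90 of RLTR25B counts in WT, 57.0% ± 6.4 in sg5 and 60.8% ± 8.21 in sg6, and the other RLTR25B copies were at 30.7 ± 3.73, 27.1 ± 2.16 and 27.0 ± 3.11 CPM.

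The other 4 of the 5 loci with the highest mean level did not pass the test in either clone. MMETn-int_dup38, an internal part of an ETn element, had 563, 1038 and 818 counts in WT, 415, 504 and 862 in sg5, and 331, 1685 and 626 in sg6 (log2 fold change −0.15 ± 0.42 and 0.29 ± 0.42). Its libraries overlap fully, with sg6 replicate 2 far above the other sg6 libraries. The log2 fold changes were 0.55 ± 0.32 in sg5 and −0.04 in sg6 for RLTR19-int_dup234, 0.39 ± 0.19 and 0.06 for MLTR18B_MM_dup94, and −0.21 ± 0.15 and 0.29 ± 0.15 for RMER19B_dup4513.

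The 11 loci that rose in both clones belong to 10 subfamilies, 9 of them LTRs and 2 internal parts by locus. RMER19B_dup887 had 12, 19 and 17 counts in WT, 175, 62 and 97 in sg5, and 130, 102 and 127 in sg6. Its log2 fold change was 3.04 ± 0.35 in sg5 (adjusted p = 0.000179) and 3.13 ± 0.35 in sg6 (adjusted p = 0.00014). MMERVK10D3_I-int_dup302 rose from 5, 0 and 2 counts to 49, 42 and 62 in sg5 (4.65 ± 0.57, adjusted p = 0.000299) and 25, 31 and 23 in sg6 (3.62 ± 0.58, adjusted p = 0.00289). RLTR25A_dup1754 had 8, 9 and 5 counts in WT, 54, 59 and 68 in sg5 and 32, 71 and 46 in sg6 (3.31 ± 0.41 and 2.91 ± 0.42). These are the 3 higher loci that passed in both clones whichever library was left out, and in each of them every KO library is above every WT library.

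The remaining risers were near 0 in WT or rose less. RLTR10D2_dup145 had 0, 1 and 0 counts in WT, 13, 23 and 34 in sg5 and 17, 7 and 19 in sg6, a ratio of summed counts of 86.1 in sg5 (95% counting interval 15 to 3449, adjusted p = 0.00137) and 50.7 in sg6 (8.62 to 2047, adjusted p = 0.00591). The sg6 call was lost without WT replicate 3 (adjusted p = 0.0555). RLTR26_Mus_dup744 had 0, 1 and 0 counts in WT, 13, 4 and 10 in sg5 and 7, 17 and 11 in sg6 (ratio 33.2, interval 5.47 to 1360, and 41.2, interval 6.93 to 1675). RLTR10F_dup118 had 0 counts in every WT library, 41, 9 and 8 in sg5 and 44, 2 and 11 in sg6. Its mean level was 7.34 times the floor of 3 counts per library in sg5 (adjusted p = 0.0395) and 7.53 times in sg6 (adjusted p = 0.0476). One library in each clone carries most of its reads, and sg6 replicate 2, at 2 counts, is itself below that floor. These folds are therefore no lower bounds for single libraries. The calls of RLTR26_Mus_dup744 were lost without WT replicate 1, WT replicate 3, sg5 replicate 1 or sg5 replicate 3 in sg5 (adjusted p up to 0.0963) and without WT replicate 3 or sg6 replicate 2 in sg6 (up to 0.0832). Those of RLTR10F_dup118 were lost without any 1 of the WT libraries or without sg5 replicate 1 in sg5 (up to 0.146), and without any 1 of the WT libraries, sg6 replicate 1 or sg6 replicate 3 in sg6 (up to 0.191). RMER19A_dup1468 had the highest WT level of the 11, with 52, 25 and 46 counts in WT, 226, 127 and 137 in sg5 and 195, 109 and 68 in sg6. RMER12B_dup306 rose from 0, 1 and 6 counts to 54, 54 and 33 in sg5 (4.66 ± 0.63) and 10, 23 and 16 in sg6 (3.01 ± 0.67, adjusted p = 0.0261). RLTR25A_dup1755, the next copy number after RLTR25A_dup1754, had 8, 9 and 4 counts in WT, 30, 53 and 63 in sg5 and 24, 41 and 30 in sg6, with its sg6 call (adjusted p = 0.0164) lost without WT replicate 3 (0.107). RLTR26C_MM_dup407 (3.03 ± 0.46 and 2.40 ± 0.47) and RLTR10-int_dup1530 (1.69 ± 0.35 and 1.54 ± 0.35) complete the 11. Single libraries decide these calls too. In sg6, RMER12B_dup306 lost its call without WT replicate 1, WT replicate 2, sg6 replicate 2 or sg6 replicate 3 (adjusted p from 0.0596 to 0.10), RMER19A_dup1468 without WT replicate 2, WT replicate 3 or sg6 replicate 1 (0.128 to 0.171), RLTR26C_MM_dup407 without WT replicate 3 (0.0706), and RLTR10-int_dup1530 without any 1 of the WT libraries or sg6 replicate 1 (0.0738 to 0.132). In sg5, RMER19A_dup1468 lost it without WT replicate 3 (0.0550), and RLTR10-int_dup1530 without WT replicate 2 or WT replicate 3 (0.0755 and 0.0653).

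The clones moved in opposite directions from WT at 4 loci, 0.166% of those tested, against 0.016% of all genes and TE loci in the same fit. All 4 belong to the MMERVK10 and RLTR10 lineages. MMERVK10D3_I-int_dup314 had 491, 319 and 458 counts in WT, 0, 1 and 4 in sg5, and 1280, 875 and 862 in sg6. MMERVK10D3_I-int_dup315, the next copy number, had 387, 228 and 360 counts in WT, 4, 2 and 4 in sg5, and 963, 652 and 703 in sg6. RLTR10D2_dup150, an LTR, had 316, 253 and 300 counts in WT, 0 in every sg5 library, and 521, 573 and 544 in sg6. At all 3 the sg5 libraries are at or near 0 and the sg6 libraries above every WT library. Loci of neighbouring copy numbers, such as MMERVK10D3_I-int_dup314 and MMERVK10D3_I-int_dup315, may be pieces of 1 element. The share of 0.166% may therefore not stand for 4 independent loci.

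In sg5 the log2 fold change was −7.65 ± 0.51 for MMERVK10D3_I-int_dup314 (adjusted p = 1.81e-06) and −6.32 ± 0.40 for MMERVK10D3_I-int_dup315 (adjusted p = 1.17e-06), and RLTR10D2_dup150 was at least 79.1-fold lower (adjusted p = 1.02e-06). In sg6 they rose by 1.45 ± 0.30 (adjusted p = 0.0155), 1.45 ± 0.26 (adjusted p = 0.00637) and 1.1 ± 0.22 (adjusted p = 0.0177). The sg6 calls are the less firm ones. They were lost without WT replicate 3 for all 3 loci (adjusted p = 0.115, 0.0573 and 0.111), without WT replicate 2 for MMERVK10D3_I-int_dup314 and RLTR10D2_dup150 (0.0800 and 0.0983), without sg6 replicate 1 for the same pair (0.0589 and 0.0511), and without sg6 replicate 3 for RLTR10D2_dup150 (0.0941). Tested against each other, the clones differed at all 3 loci in every fit that leaves out 1 library: by −9.10 and −7.77 on the log2 scale for MMERVK10D3_I-int_dup314 and MMERVK10D3_I-int_dup315 (adjusted p = 5.93e-07 and 3.77e-07), and at least 170-fold for RLTR10D2_dup150 (adjusted p = 3.77e-07).

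The fourth locus, RLTR10D2_dup130, moved the other way round. It had 41, 24 and 43 counts in WT, 85, 49 and 82 in sg5, and 8, 7 and 8 in sg6. Its log2 fold change was 1.25 ± 0.31 in sg5 (adjusted p = 0.0378) and −2.0 ± 0.37 in sg6 (adjusted p = 0.0072), and 3.25 ± 0.36 between the clones (adjusted p = 0.000627). The sg5 call was lost without WT replicate 2 (adjusted p = 0.188), WT replicate 3 (0.160), any 1 of the sg5 libraries (0.0719 to 0.102) or sg6 replicate 3 (0.0648).

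These few loci carry their subfamilies. MMERVK10D3_I-int_dup314 and MMERVK10D3_I-int_dup315 together held 33.6% ± 4.36 of MMERVK10D3_I-int counts in WT, 1.23% ± 0.378 in sg5 and 75.2% ± 1.23 in sg6. With MMERVK10D3_I-int_dup59 and MMERVK10D3_I-int_dup255 the 4 loci held 73.2% ± 0.488, 22.9% ± 4.86 and 91.3% ± 1.34, and the other copies were at 20.5 ± 5.32, 12.5 ± 1.47 and 8.01 ± 0.875 CPM. RLTR10D2_dup150 held 73.9% ± 2.57 of RLTR10D2 counts in WT, 0% in sg5 and 88.2% ± 1.94 in sg6. MMERVK10D3_I-int_dup255 had 409, 234 and 576 counts in WT, 17, 12 and 22 in sg5 and 259, 165 and 157 in sg6, so its sg6 libraries overlap WT (log2 fold change −4.28 ± 0.35, adjusted p = 1.34e-05, and −0.82 ± 0.29, adjusted p = 0.213). MMERVK10D3_I-int_dup59 fell in both clones, from 440, 372 and 671 counts to 56, 49 and 101 in sg5 and 234, 169 and 159 in sg6 (−2.55 ± 0.27 and −1.15 ± 0.25). Its sg6 call was lost without WT replicate 1, WT replicate 3, sg6 replicate 2 or sg6 replicate 3 (adjusted p from 0.122 to 0.162). Other copies of the subfamily fell in both clones alike, such as MMERVK10D3_I-int_dup228, with 148, 92 and 118 counts in WT, 5, 5 and 18 in sg5 and 6, 16 and 5 in sg6, and MMERVK10D3_I-int_dup349, with 102, 78 and 162 counts in WT and 4 counts in 1 KO library (sg6 replicate 1).

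Between the clones, 9 loci were higher in sg5 (0.374% against 0.216% of all genes and TE loci) and 7 lower (0.291% against 0.275%), the latter 4 without sg6 replicate 3. Of the 9 higher in sg5, 7 did not pass against WT in sg5 and were near 0 in sg6. MMETn-int_dup641 had 104, 159 and 283 counts in WT, 80, 63 and 103 in sg5, and 3, 4 and 5 in sg6. Its log2 fold change was −0.79 ± 0.27 in sg5 (adjusted p = 0.13) and −5.17 ± 0.36 in sg6 (adjusted p = 2.7e-06), and 4.38 between the clones (adjusted p = 3.86e-05). ETnERV-int_dup632, another internal part of the ETn group, had 58, 95 and 158 counts in WT, 33, 38 and 67 in sg5 and 2, 3 and 4 in sg6 (3.95 between the clones, adjusted p = 0.000841). Further ETn loci fell in sg6 without passing in sg5 or between the clones, among them RLTRETN_Mm_dup851, an ETn LTR with 4, 32 and 43 counts in WT, 13, 11 and 13 in sg5 and 0, 0 and 1 in sg6, and ETnERV3-int_dup225, with 18, 19 and 51 counts in WT, 21, 1 and 9 in sg5 and 1, 0 and 3 in sg6.

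RLTR8_dup151 had 78, 72 and 113 counts in WT, 56, 41 and 62 in sg5, and 2, 2 and 4 in sg6 (4.31 between the clones, adjusted p = 8.24e-05). RMER17B_dup1944 had 31, 69 and 88 counts in WT, 27, 16 and 25 in sg5 and 1, 0 and 3 in sg6 (4.01, adjusted p = 0.00809), and RMER17C-int_dup1523 had 27, 45 and 84, then 44, 28 and 37, then 0, 0 and 5 (4.40 ± 0.71, adjusted p = 0.0104). MurERV4-int_dup1132 had 15, 39 and 60 counts in WT, 25, 12 and 24 in sg5 and 1, 1 and 0 in sg6, a ratio of 31.8 between the clones (95% counting interval 8.44 to 269, adjusted p = 0.00472). RMER13A_dup669 had 36, 47 and 96 counts in WT, 35, 17 and 26 in sg5, and 1, 6 and 2 in sg6 (3.13, adjusted p = 0.0104), a call lost without sg6 replicate 3 (adjusted p = 0.0715). At each of these loci the sg6 libraries lie below all others, and sg5 did not pass against WT. MMERVK10C-int_dup304 was lower in both clones and further down in sg6, with 33, 32 and 47 counts in WT, 6, 5 and 10 in sg5 and 0 in sg6. Its fall in sg5 (−2.11 ± 0.42, adjusted p = 0.0151) was lost without any 1 of the WT libraries, sg5 replicate 1 or sg5 replicate 2 (adjusted p from 0.0525 to 0.0720), and the difference between the clones (at least 2.41-fold, adjusted p = 0.0188) without sg5 replicate 3, sg6 replicate 2 or sg6 replicate 3 (up to 0.0715).

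The clearest gain of 1 clone was RLTR22_Mur_dup1178, with 0 counts in every WT and sg5 library and 22, 26 and 44 in sg6. It was at least 11.8-fold above WT (adjusted p = 0.0017) and at least 9.65-fold above sg5 (adjusted p = 0.00873), the second lost without sg6 replicate 3 (adjusted p = 0.114). RLTR31D_MM_dup3992 also had 0 counts in every WT and sg5 library, with 14, 11 and 17 in sg6, at least 5.40-fold above WT (adjusted p = 0.0271). Its difference between the clones did not pass (adjusted p = 0.115). RLTR20B2_dup715 was lower in sg5 than in sg6 by 1.62 on the log2 scale, a call lost without WT replicate 1, WT replicate 3, sg5 replicate 1, sg5 replicate 2, sg6 replicate 2 or sg6 replicate 3 (adjusted p from 0.0645 to 0.155).

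**Figure D4:**
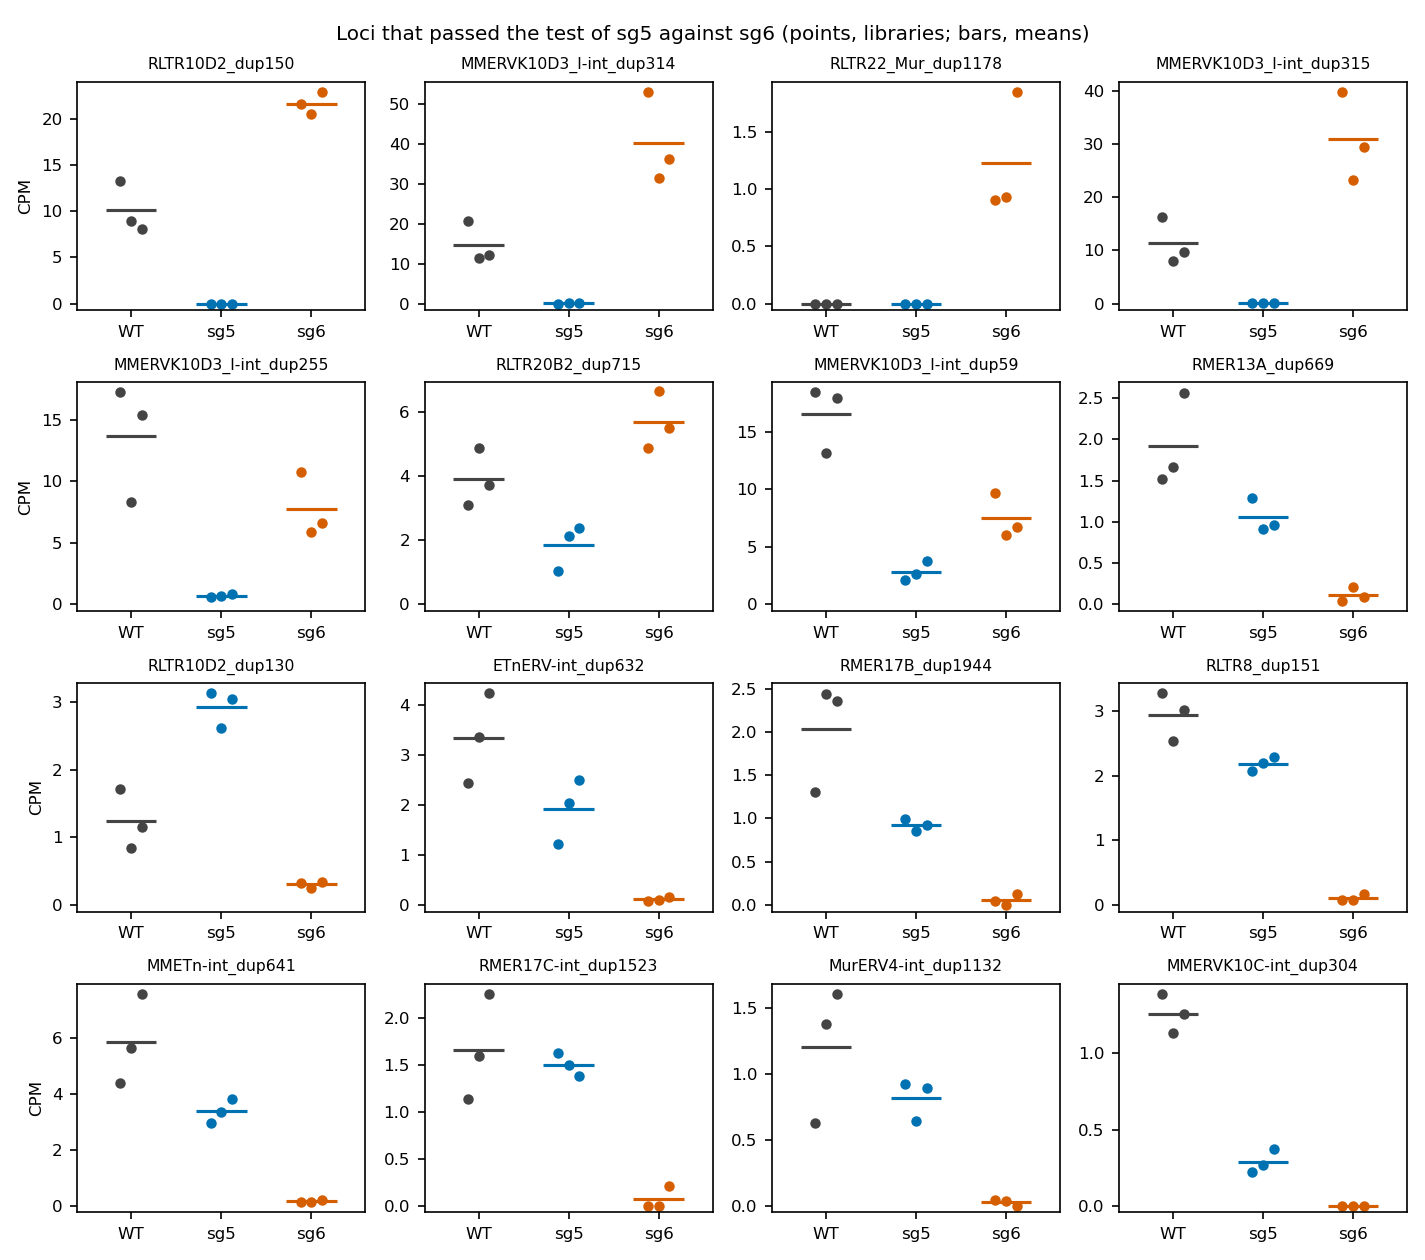
CPM in each library of WT, sg5 and sg6 (points, with the mean as a bar; the vertical axes start near 0 and differ between panels) of the 16 loci that passed the test of sg5 against sg6. The first panels show sg5 at or near 0 beside high sg6 libraries, as at RLTR10D2_dup150, and the last rows sg6 near 0 beside sg5 within reach of WT, as at MMETn-int_dup641.

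Loci called in 1 clone only are not shown to differ between the clones unless that difference passed. In sg5 alone 22 loci fell, 0.914% of those tested against 0.891% of all genes and TE loci, and 12 rose, 0.499% against 1.09%, and 1 of the 34 passed between the clones. In sg6 alone 20 fell, 0.831% against 0.553%, and 9 rose, 0.374% against 0.44%, and 8 of the 29 passed. RMER19B_dup939, for example, fell in sg5 from 82, 68 and 128 counts to 7, 7 and 18 (−2.81 ± 0.36, adjusted p = 0.000467), while its sg6 counts of 35, 34 and 29 gave −1.25 ± 0.33 (adjusted p = 0.0588) and the clones did not differ past the threshold (adjusted p = 0.127). RLTR44A_dup32, an LTR of the same name group as RLTR44-int, rose in sg5 from 74, 134 and 146 counts to 147, 260 and 344 (1.44 ± 0.32, adjusted p = 0.0207), and had 170, 291 and 225 in sg6 (1.19 ± 0.32, adjusted p = 0.0665). Both loci lie on the same side of WT in both clones.

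By part, 22 of 480 tested internal loci fell and 2 rose in both clones, and 31 of 1926 LTR loci fell and 9 rose. Of all genes and TE loci in the same fit, 1.16% fell and 0.727% rose in both clones, 2.06% fell in sg5 and 1.72% fell in sg6. The counts by part and lineage given here were not tested against these shares. By lineage, the 141 tested loci named MMERVK10 or RLTR10 had 7 lower and 4 higher in both clones, and 12 lower in sg5. The summed level of all 2945 loci of these names with a count, tested or not, was 262 ± 25.0 CPM for WT, 170 ± 7.52 for sg5 and 264 ± 26.8 for sg6. By this sum all sg5 libraries were below WT and the sg6 libraries overlapped it. Of 943 loci in the remaining RLTR group 28 fell and 4 rose in both clones, and of 759 RMER loci 13 fell and 3 rose. Of 65 MMERVK9 or RLTR9 loci 3 fell and none rose. The ETn and MusD lineages had 1 of 107 tested loci lower in both clones, ETnERV-int_dup578, and 6 lower in sg6. The summed level of their 1231 loci with a count was 201 ± 27.9 CPM for WT, 171 ± 25.2 for sg5 and 184 ± 48.8 for sg6. None of 160 MLTR, 87 MYSERV or 47 BGLII loci, nor the 1 MMTV locus tested, was called in both clones. The median log2 fold change was below 0 in both clones for each lineage but MMTV, from −0.05 in sg6 for MLTR to −0.36 in sg6 for the remaining ERVB loci, in a table where the median of all TE loci was also below 0.

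Summed by subfamily, 8 of 241 subfamilies fell in both clones, 3.32% beside 4.12% of all genes and TE subfamilies in the same fit, and none rose (3.84% of all features did). In sg5 17 fell (7.05% against 8.18%) and none rose (8.57% of all features did), and in sg6 13 fell (5.39% against 5.79%) and 1 rose (0.415% against 5.74%). For the subfamilies higher in sg5, edgeR gave 0 calls, 0 at an unadjusted p below 0.05, and DESeq2 also 0. The median log2 fold change of the 241 was −0.31 in sg5 and −0.24 in sg6, with 215 and 207 of them below 0, beside −0.24 and −0.20 for TE subfamilies of every kind. In the locus fit, scaling by TE rows in place of genes raises a fold change by 0.18 (sg5) and 0.12 (sg6) on the log2 scale, so falls become smaller. The shift in the subfamily fit, which has its own factors, is not given. In that fit, under TE rows alone, 3 of the 8 (RLTR20B1, RLTR25B and RLTR44-int) passed in both clones. Other settings gave more calls: DESeq2 called 31 subfamilies lower in sg5 and 13 in both, and the fit with a replicate block 36 lower and 1 higher in sg5. Left-out libraries mostly took calls away, though the subfamilies lower in sg5 ranged up to 24 over the 9 fits. In both clones 4 to 7 subfamilies fell over the 9 fits, 4 of them (RLTR17, RLTR20B1, RLTR25B and RLTR44-int) every time, with 4 left without WT replicate 2, WT replicate 3, sg6 replicate 2 or sg6 replicate 3 and 5 without sg5 replicate 2, sg5 replicate 3 or sg6 replicate 1. In sg5 7 were left without WT replicate 3, 8 without WT replicate 2 or sg5 replicate 2, 9 without sg6 replicate 3, 10 without sg5 replicate 3 and 11 without sg5 replicate 1, where 1 rose. In sg6 4 were left without WT replicate 2, WT replicate 3 or sg6 replicate 3, 5 without sg6 replicate 2 and 6 without sg6 replicate 1.

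RLTR44-int fell most, from 24.0, 17.2 and 22.7 CPM in WT to 2.22, 3.0 and 2.90 in sg5 and 3.81, 3.04 and 4.04 in sg6 (log2 fold change −3.03 ± 0.21, adjusted p = 4.8e-05, and −2.58 ± 0.20, adjusted p = 8.7e-05). RLTR25B had 129, 161 and 139 CPM in WT, 58.7, 66.6 and 65.0 in sg5 and 63.0, 81.5 and 66.0 in sg6 (−1.22 ± 0.14 and −1.05 ± 0.14, adjusted p = 0.000645 and 0.00147). RLTR20B1 had 17.7, 19.97 and 26.6 CPM in WT and 10.1 to 12.5 in the KO libraries (−0.99 ± 0.19 and −1.05 ± 0.19, adjusted p = 0.00833 and 0.0077). In each of them all KO libraries lie below all WT libraries. RLTR17 fell from 51.1, 52.7 and 68.8 CPM to between 31.6 and 37.1 (−0.82 ± 0.16 and −0.77 ± 0.16). RLTR44B, RLTR12B2, RLTR20D and RLTR13C2 changed by −1.46 to −0.70, with adjusted p from 0.0165 to 0.0428, and each lost a call in at least 1 of the fits without a library. How far 1 locus carries a subfamily shows when its locus of highest count is left out. Then 4 of the 8 (RLTR12B2, RLTR20B1, RLTR44-int and RLTR44B) still fell in both clones, while RLTR25B was at −0.23 and −0.22 (adjusted p = 0.31 and 0.42) and RLTR17 at −0.26 and −0.21 (0.31 and 0.47).

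The clones moved in opposite directions at 1 subfamily, RLTR10D2 (0.0629% of all genes and TE subfamilies did). It had 17.8, 11.8 and 11.3 CPM in WT, 5.62, 5.78 and 5.53 in sg5 and 24.0, 23.8 and 25.7 in sg6. The log2 fold change was −1.31 ± 0.16 in sg5 (adjusted p = 0.000916) and 0.83 ± 0.16 in sg6 (adjusted p = 0.00843), the 1 subfamily that rose. Without RLTR10D2_dup150 these values turned to 0.63 and −0.31 (adjusted p = 0.0644 and 0.397), so the direction of the sum is that of this locus. MMERVK10D3_I-int had 98.5, 56.1 and 75.7 CPM in WT, 16.3, 14.2 and 18.0 in sg5 and 122, 74.1 and 86.7 in sg6 (−2.29 ± 0.24, adjusted p = 0.000425, and 0.27 ± 0.23, adjusted p = 0.50). Between the clones 3 subfamilies were lower in sg5 (1.24% against 1.32% of all features). RLTR10D2 and MMERVK10D3_I-int fell by 2.14 and 2.56 on the log2 scale in sg5 relative to sg6. RLTR20B2 had 11.7, 11.3 and 11.4 CPM in WT, 8.54, 8.94 and 8.58 in sg5 and 12.5, 14.2 and 13.4 in sg6, and its call (adjusted p = 0.0296) was lost in 8 of the 9 fits without a library. The other subfamilies called in 1 clone were BGLII_Mus, MMERVK9C_I-int, RLTR12E, RLTR20B3, RLTR27 and RMER19B2, lower in sg5, and ERVB2_1A-I_MM-int, ERVB7_2B-LTR_MM, RLTR42, RLTR8 and RMER17C-int, lower in sg6, and none of them differed between the clones past the threshold. Few of these calls are firm. Of the 9 fits without a library, 8 lost the call of BGLII_Mus, RLTR12E, RMER19B2 and RLTR42, 7 that of RLTR20B3, RLTR27 and RMER17C-int, 6 that of RLTR8 and 5 that of ERVB2_1A-I_MM-int and ERVB7_2B-LTR_MM, while MMERVK9C_I-int passed in each and missed the threshold when scaled by TE rows alone (adjusted p = 0.110). The adjusted p in those fits reached 0.154. In sg6 the fall was 0.66 for RLTR8 and for ERVB2_1A-I_MM-int, 0.72 for RMER17C-int, 0.78 for RLTR42 and 1.14 for ERVB7_2B-LTR_MM on the log2 scale. RLTR8_dup151 held 44.5% ± 3.53 of RLTR8 counts in WT, 41.2% ± 0.167 in sg5 and 2.45% ± 0.895 in sg6, and without it RLTR8 turned to 0.16 in sg6 (adjusted p = 0.62). Of subfamilies tested between the clones, none was higher in sg5 by edgeR (0.615% of all features were), 0 at an unadjusted p below 0.05, and DESeq2 gave 0 as well.

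**Figure D5:**
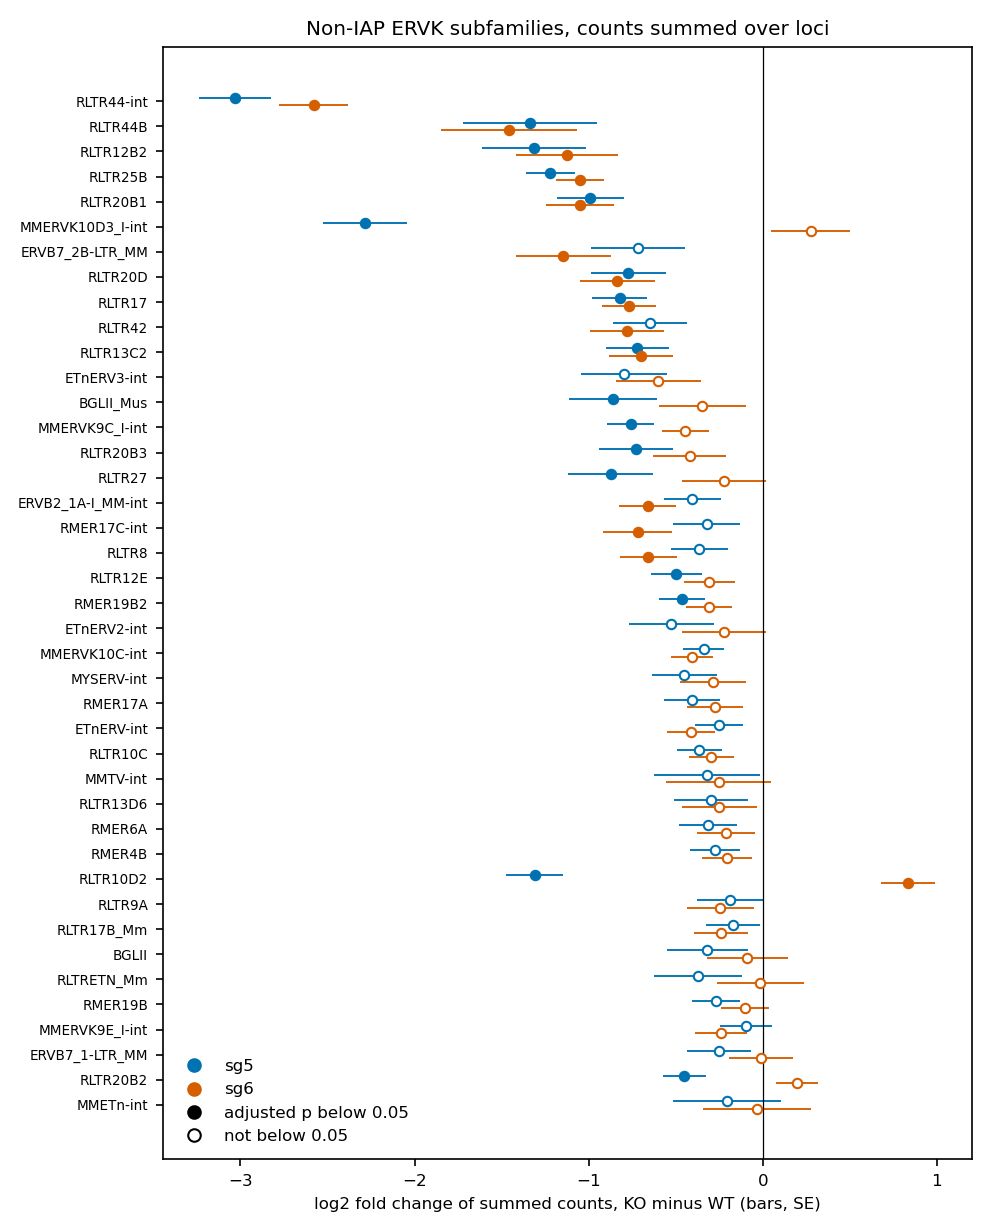
Log2 fold change (KO minus WT, bars are SE) of the summed counts of the subfamilies called in any comparison and of those named by rule, for sg5 (blue) and sg6 (orange); filled points have an adjusted p below 0.05. The points lie left of 0 but for RLTR10D2, MMERVK10D3_I-int and RLTR20B2 in sg6, and RLTR44-int lies farthest left in both clones.

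None of the ETn, MusD and MMERVK10C subfamilies named by rule passed in either clone, while ERVB7_2B-LTR_MM, grouped with ETn and MusD, was lower in sg6 (−1.14, adjusted p = 0.0273). Of the ETn and MusD subfamilies, ETnERV-int had 26.3, 29.3 and 33.9 CPM in WT, 24.2, 27.8 and 26.3 in sg5 and 22.8, 21.8 and 24.1 in sg6 (−0.25 ± 0.14 and −0.41 ± 0.14, adjusted p = 0.239 and 0.0868). ETnERV3-int was at −0.80 ± 0.24 in sg5 (adjusted p = 0.0529) and −0.60 ± 0.24 in sg6, and MMETn-int at −0.20 ± 0.31 and −0.03 ± 0.31. MMERVK10C-int had 78.1, 80.6 and 92.0 CPM in WT, 63.0, 72.6 and 70.2 in sg5 and 63.0, 64.2 and 65.9 in sg6. In CPM, scaled as in the locus fit, every KO library of MMERVK10C-int is below every WT library. Its log2 fold changes in the fit of summed counts, −0.34 ± 0.12 and −0.41 ± 0.12, missed the threshold (adjusted p = 0.0799 and 0.0568). MMERVK9C_I-int fell in sg5 (−0.76 ± 0.13, adjusted p = 0.00515) and missed the threshold in sg6 (−0.44 ± 0.13, adjusted p = 0.0611). RMER19B, the largest non-IAP ERVK subfamily by summed level, had 130, 139 and 168 CPM in WT, 120, 125 and 131 in sg5 and 136, 135 and 145 in sg6 (−0.27 ± 0.14 and −0.10 ± 0.14). RLTRETN_Mm, ERVB7_1-LTR_MM, ETnERV2-int, RLTR10C, MMERVK9E_I-int, RLTR9A, MMTV-int, BGLII, MYSERV-int, RLTR13D6, RMER17A, RLTR17B_Mm, RMER6A and RMER4B did not pass in either clone, and RLTR3_Mm, the LTR of mouse mammary tumour virus, was too low to be tested.

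Of a list of genes tied to the silencing of ERVK copies, 3 passed in sg5 (2 higher and 1 lower) and 1 in sg6 (higher). Among all genes tested 5.64% rose and 5.10% fell in sg5, and 3.55% and 4.03% in sg6, so counts this small are no result about the list. All 34 genes of the list, KRAB zinc finger cofactors, H3K9 and DNA methyltransferases, HUSH and histone H3.3 genes among them, were tested. The list and its median also hold the DNA demethylation genes *Tet1*, *Tet2* and *Tet3*, which are no silencing genes and passed in neither clone. *Tasor*, a subunit of the HUSH complex that maintains H3K9me3 over repeats, rose in both clones, from 30.9 ± 2.32 CPM to 55.8 ± 5.53 in sg5 (0.85 ± 0.14, adjusted p = 0.00352) and 53.8 ± 3.25 in sg6 (0.80 ± 0.14, adjusted p = 0.00637). The call in sg6 was lost without WT replicate 2 or sg6 replicate 3. In sg5 *Mphosph8*, another HUSH subunit, rose from 12.1 ± 1.65 to 27.6 ± 6.25 CPM (1.19 ± 0.21, adjusted p = 0.00469), and *Cbx1*, which encodes a heterochromatin protein of the HP1 group, fell from 122 ± 13.9 to 74.8 ± 4.34 CPM (−0.70 ± 0.14, adjusted p = 0.00963). The other 31 genes in sg5 and 33 in sg6 did not pass. Among them in both clones was *Pphln1*, also a HUSH subunit (−0.15 ± 0.18 in sg5 and 0.09 ± 0.18 in sg6, adjusted p = 0.739 and 0.910). The median log2 fold change of the list was −0.12 in sg5 and −0.10 in sg6, while all genes tested had a median of 0.08 and 0.04.

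Against the nearest relatives in the table, the same reading of both clones found 12 of 384 tested IAP loci lower (3.12%) and 2 higher (0.521%), and 8 of 586 ERV1 loci lower (1.37%) and 3 higher (0.512%). Losses thus outnumbered gains in each of the 3 groups, and the difference between groups was not tested. IAP loci took 0.0907% ± 0.0183 of all counts in WT, 0.0909% ± 0.000871 in sg5 and 0.0869% ± 0.00305 in sg6.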

How the data were processed

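RNA of 3 *Atrx* WT, 3 sg5 and 3 sg6 libraries was sequenced after rRNA depletion. The authors aligned the reads to the mm10 mouse genome with STAR, keeping reads that map to several places, and counted them over genes and single TE loci with TElocal, which shares such reads out among copies. The deposited values are these counts, whole numbers and not normalized. Reads of near-identical copies cannot be told apart, so values of such loci are uncertain, and the strand setting is not given in the sources used here, so sense and antisense reads cannot be told apart either. The polyA table of the same lines holds genes only and was not used.

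From the counts, features were kept by filterByExpr of edgeR 4.0.16 (count minimum 10, total minimum 15) in R 4.3.3, scaled by TMM and fitted with the quasi-likelihood test, with the 9 libraries in 3 groups. P-values were adjusted by Benjamini-Hochberg over 56086 genes and TE loci, or over 14310 genes and TE subfamilies after loci were summed, and a feature was called at an adjusted p below 0.05. Of 24100 gene rows 24045 were matched to symbols by RefSeq. Fold changes are log2 ± SE, levels are TMM-scaled CPM ± SD, and ratios of few counts have exact 95% intervals that, like the floor of 3 counts, cover counting error only. Levels of summed subfamilies, and statements of overlap between their libraries, use the scaling factors of the locus fit. Their fold changes come from the fit of summed counts with its own factors, so levels and fold changes can differ somewhat. The shares of all counts were compared by exact two-sided permutation tests. The fits were tested on simulated counts.

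Loci were named by rule: the 5 highest and 5 lowest called in both clones without overlap, the 5 with the highest mean level, and the 3 highest and 3 lowest between the clones. Subfamilies were those called in both clones, the 5 of highest level, and a list of known lineages. Members and lists were chosen with earlier results of these data known. Alternatives covered DESeq2 1.42.0, other scalings, filters and thresholds, fits of 2 groups, a replicate block, subfamilies without their top locus, and each library left out in turn. No pair of libraries was identical.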

Additional observations from a re-analysis of the deposited data

Results flagged for a closer look

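At 16 loci and 3 summed subfamilies the effect in sg5 differed from that in sg6 by the test of the difference itself. Values are log2 fold changes of sg5 minus sg6, and where a clone had 0 counts in every library they depend on the prior count and are no measured fold. The loci higher in sg5 were MMERVK10C-int_dup304 (5.95, with sg6 at 0), MurERV4-int_dup1132 (4.74), RMER17C-int_dup1523 (4.40), MMETn-int_dup641 (4.38), RLTR8_dup151 (4.31), RMER17B_dup1944 (4.01), ETnERV-int_dup632 (3.95), RLTR10D2_dup130 (3.25) and RMER13A_dup669 (3.13).

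The loci lower in sg5 were RLTR10D2_dup150 (−12.16, with sg5 at 0), MMERVK10D3_I-int_dup314 (−9.10), RLTR22_Mur_dup1178 (−8.03, with sg5 at 0), MMERVK10D3_I-int_dup315 (−7.77), MMERVK10D3_I-int_dup255 (−3.46), RLTR20B2_dup715 (−1.62) and MMERVK10D3_I-int_dup59 (−1.40). The call of MMERVK10D3_I-int_dup59 was lost in 6 of the 9 fits that leave out 1 library, with an adjusted p of 0.0619 to 0.141 by edgeR. The summed subfamilies lower in sg5 were MMERVK10D3_I-int (−2.56), RLTR10D2 (−2.14) and RLTR20B2 (−0.65), the last lost in 8 of those fits. With 1 clone for each guide, the guide and the clone cannot be told apart.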

How the results depend on the processing

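Counts of called loci changed most with the filter. The matching shares over all genes and TEs are not given for these settings. With at least 10 counts required in every library, 8 loci rose and 17 fell in sg5, 5 and 9 in sg6, 4 and 8 in both, and of the clones sg5 was above sg6 at 0 loci and below it at 3. This filter removes loci at 0 in a group. With no filter, 37 loci rose in sg6, 21 in both, and sg5 was above sg6 at 17 and below it at 18. DESeq2 called 13 lower in sg5 than in sg6, and fits of the 2 groups alone 5 higher. For subfamilies, a log2 fold change beyond 1 left 0 higher in sg6 and 6 lower in sg5, 6 in sg6 and 4 in both. DESeq2 called 31 lower in sg5 and 13 in both, fits of 2 groups 9 and 5, and TMM factors from TE rows alone, chosen after seeing the data, 5 lower in sg5, 3 in sg6 and 3 in both. The cause was not tested. Without each subfamily's top locus, 0 rose in sg6 and 1 was lower in sg5 than in sg6; RLTR10D2 turned to 0.63 in sg5, −0.31 in sg6 and 0.94 between the clones, and RLTR8 to 0.16 in sg6. Within TE counts the log2 ratio of the non-IAP ERVK share was −0.14 for sg5 against WT and 0.00102 for sg5 against sg6. Silencing genes called in sg6 were 2 with TMM factors from genes alone and 3 with at least 10 counts in every library.

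Libraries with the same replicate number correlated at 0.0554 to 0.268 in their deviations from group means, and those with different numbers at −0.231 to 0.145. Not every library correlated best with its own number. The labels do not say what a shared number stands for, and the main fit leaves it out. With the replicate block 1 subfamily rose and 36 fell in sg5, and 5 silencing genes in sg5 and 2 in sg6 were called; it moved no count of loci by over 1.5 times.

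Over the 9 fits that leave out 1 library, loci higher ranged from 9 to 29 in sg5, 6 to 33 in sg6, 4 to 12 in both and 7 to 11 in sg5 over sg6, and loci lower from 36 to 86, 35 to 87, 20 to 54 and 4 to 7. Subfamilies higher ranged from 0 to 1 in sg5 and 1 to 1 in sg6, and lower from 7 to 24 in sg5, 4 to 13 in sg6, 4 to 7 in both and 2 to 3 in sg5 below sg6. *Atrx* ranged from −1.64 to −1.16 in sg5 and −1.41 to −1.19 in sg6, silencing genes called from 2 to 3 and 0 to 1, and the log2 ratio of the share from −0.533 to −0.251 in sg5, −0.451 to −0.168 in sg6 and −0.133 to −0.0356 between the clones. Depth limits the size of a loss: at a locus with no count left in a clone a fold is a bound on the change of the group mean, set by the floor of 3 counts per library.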
